A study of Mus musculus with 6 samples.

Results

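NRF2, the product of Nfe2l2, is the transcription factor that raises antioxidant and detoxifying enzymes when a cell meets oxidants or electrophiles. In unstressed cells KEAP1 binds NRF2 and hands it to a ubiquitin ligase, so that it is degraded. When KEAP1 is modified, NRF2 accumulates, pairs with a small MAF protein and binds antioxidant response elements near its target genes. In the liver these targets make and recycle glutathione, reduce quinones, break down haem and supply the cofactors of conjugation. The genes described here are Nfe2l2 and 9 of its classical targets or target enzymes, namely Nqo1, Hmox1, Gclc, Gclm, Gsr, Txnrd1, Srxn1, G6pdx and Ugdh. They were chosen by name, with earlier results of these data known, and all probe sets annotated to exactly 1 of them were taken. Of the 10 genes, 9 had such a probe set, 18 probe sets of 45037 in all. The annotation used here gives no probe set to G6pdx, which supplies NADPH, so it is not analysed here.

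Liver RNA of male A/J mice and of male A/J-12SM mice was compared on 6 one-colour Affymetrix arrays, 3 per strain. A/J-12SM is a consomic strain, in which chromosome 12 comes from SM/J and the rest of the genome from A/J. Both strains had received the high-fat diet for 7 weeks, neither carried a transgene, and their age is not given in the labels. The RNA of 3 mice was combined for each array, so that a replicate is a pool, and all p-values measure the spread between pools.

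None of the 10 genes lies on chromosome 12. In the GRCm38.p6 annotation of RefSeq, Nfe2l2 (75675513 to 75704663) and Srxn1 (152105524 to 152111376) lie on chromosome 2. Hmox1 (75093618 to 75100593), Nqo1 (107388225 to 107403205) and Gsr (33653238 to 33698162) lie on chromosome 8. Gclc lies on chromosome 9 (77754535 to 77794489), Gclm on chromosome 3 (122245487 to 122267215) and Txnrd1 on chromosome 10 (82833951 to 82897724). Ugdh lies on chromosome 5 (65413207 to 65435842) and G6pdx on chromosome X (74409483 to 74428880). By the labels, both strains therefore carry the A/J chromosome at each of these genes.

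Promoter windows were available from RefSeq (GRCm38.p6, 250 bases before to 50 after each start) for 7 of the 10 genes, namely Nfe2l2, Nqo1, Gclm, Txnrd1, Srxn1, G6pdx and Ugdh. They were searched on both strands for the core of the antioxidant response element, written TGACNNNGC or TGAGNNNGC, where N is any base. With TCA in the middle these letters also hold the AP-1 heptamer TGACTCA or TGAGTCA. In 6 of the 7 genes at least 1 window held the core, against 27.8% of all 32851 windows and 30.8% of 27025 genes. TGACNNNGC alone was present in at least 1 window of the same 6 genes. It was present in 12.4% of all windows, a share by window and not by gene, and its share by gene was not computed. The stretches below are shown because they hold matches upstream of the start in genes measured on the arrays, 1 for each gene and both for Ugdh. They are written 5′ to 3′ along the gene, in lower case with the match in capitals. Where the core lies on the opposite strand, the capitals show its complement.
Ugdh, first match, chr5:65435946-65435994, minus strand: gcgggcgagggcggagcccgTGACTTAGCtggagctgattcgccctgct
Ugdh, next match, chr5:65435908-65435956, minus strand, core on the opposite strand: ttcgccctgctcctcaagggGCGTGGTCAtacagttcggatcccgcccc
Srxn1, chr2:152105459-152105507, plus strand: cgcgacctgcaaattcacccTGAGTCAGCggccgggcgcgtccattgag
Txnrd1, chr10:82859094-82859142, plus strand, core on the opposite strand: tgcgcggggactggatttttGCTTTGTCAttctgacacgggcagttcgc
Gclm, chr3:122245403-122245451, plus strand, core on the opposite strand: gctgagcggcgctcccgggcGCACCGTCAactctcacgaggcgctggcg
Nfe2l2, chr2:75704875-75704913, minus strand: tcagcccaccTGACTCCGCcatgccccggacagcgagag

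Among these, only the Srxn1 stretch shown holds an AP-1 heptamer inside the match, which begins at position -45 relative to the start. Srxn1 has 1 more match upstream and 1 past the start. Txnrd1 has 3 windows, of which 1 holds the core. The Nqo1 window holds no match, and its 250 bases before the start, chr8:107403206-107403455 on the minus strand, are shown for comparison.
Nqo1: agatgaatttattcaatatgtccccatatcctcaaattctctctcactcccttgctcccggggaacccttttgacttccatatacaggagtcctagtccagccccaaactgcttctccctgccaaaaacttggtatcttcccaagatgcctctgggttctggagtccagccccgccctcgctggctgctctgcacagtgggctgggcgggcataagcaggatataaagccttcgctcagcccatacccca
A match is a run of letters and not a measured binding site, and these arrays did not measure binding. Sequence further upstream was not searched, so a window without a match does not show that a gene lacks the element.

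The deposited values are MAS5 signals, 1 per probe set and array. Each probe set combines several short probes of a transcript. The mean signal, after 2% of the values were trimmed at each end, was 201 to 213 on the A/J arrays and 171 to 186 on those of A/J-12SM. Because of this gap between the strains, quantile normalization was applied to the log2 signals before any comparison. Values below are normalized log2 signals unless called deposited, differences are A/J-12SM minus A/J, and where a gene has several probe sets the brightest stands for it unless stated. Among the A/J-12SM arrays, replicate 3 was lowest in the actin 5′/3′ signal ratio, a sign of RNA quality, at 0.423 against 0.553 to 0.590 in the other 5 arrays. The same ratio of GAPDH did not set it apart, at 1.53 within the 1.45 to 1.55 of the others. Differences of the 9 measured genes are given with and without this array. All 8 hepatocyte markers examined, with albumin (Alb) the first among them, were brighter than the median probe set.

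All 9 measured genes had a lower mean in A/J-12SM than in A/J liver, but none passed the test. The median difference over the 9 genes was -0.31 on the log2 scale, beside -0.006 over all 18193 genes. The test was limma, a linear model that draws the spread of each probe set toward that of probe sets of like brightness. Its adjusted p-values ran from 0.547 to 0.900, and 0.0660% of all genes passed an adjusted p under 0.05. At an unadjusted p under 0.05, 3 of the 9 genes were lower (Nqo1, Hmox1 and Ugdh), against 3.40% of all genes and 4.0% of the 11042 genes whose brightness reached the median, where all 9 lie. In 4 genes (Nqo1, Hmox1, Ugdh and Txnrd1) no A/J-12SM array reached any A/J array, against 7.18% of the genes of that brightness lower without overlap. A lower mean alone was found in 50.6% of them. Of the 18 probe sets, 16 had a lower mean and 5 did not overlap, against 49.6% and 6.71% of probe sets of at least median brightness. With the values as deposited, where the median over all probe sets was -0.22, 7 of the 9 genes were lower without overlap, beside 29.3% of these brighter genes, and 87.5% of the brighter genes had a lower mean. Probe sets of 1 gene share a transcript and are not independent. The genes were chosen with earlier results of these data known, so the shares beside their counts describe and do not test.

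**Figure D1:**
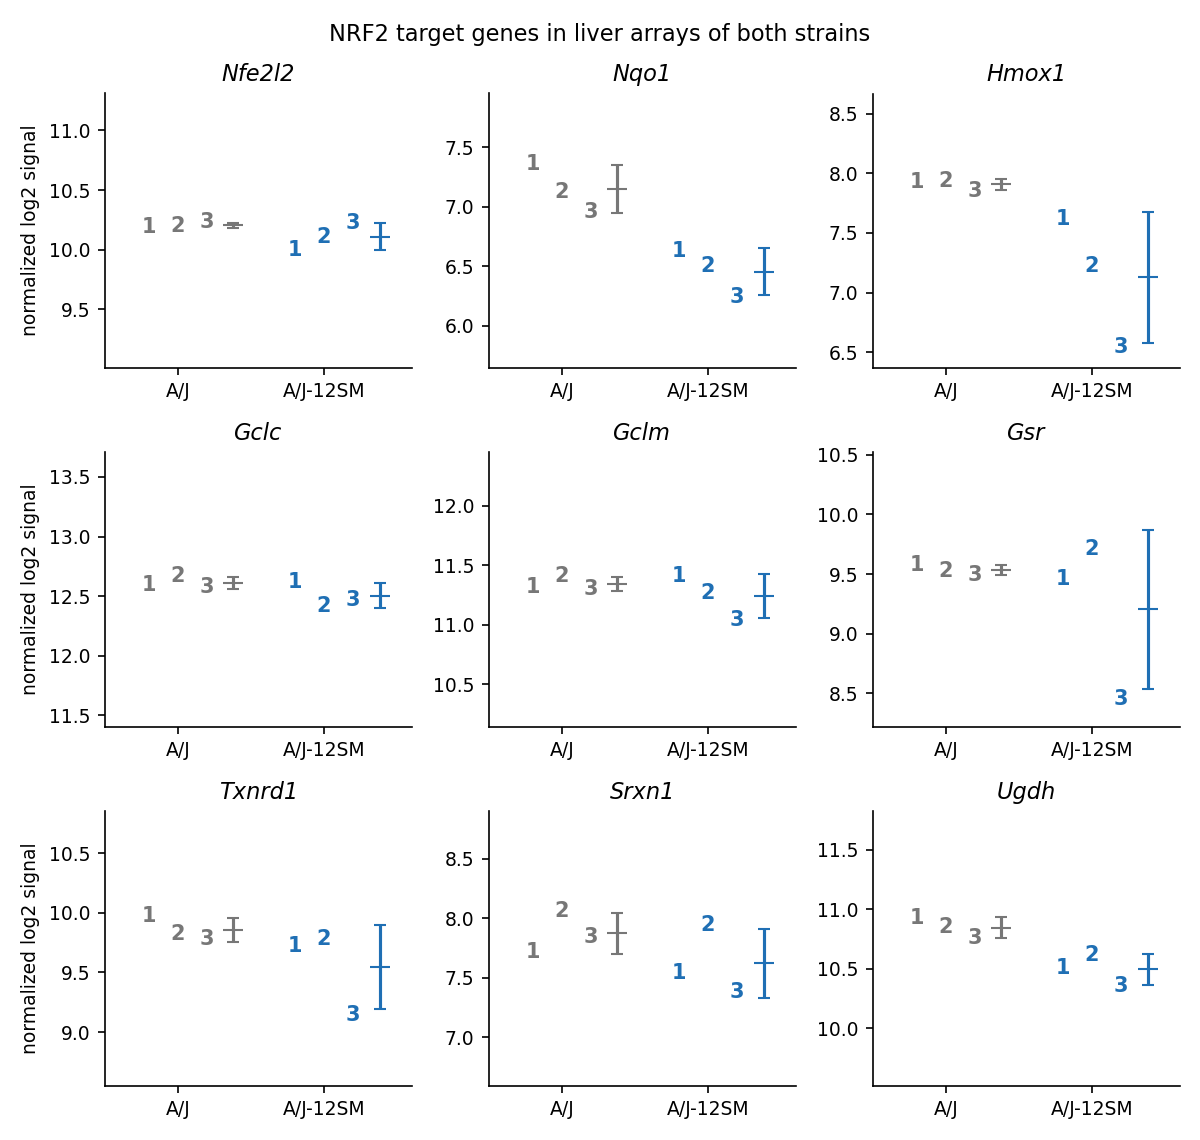
Signal after normalization (log2, y axis) for 9 genes, each by its brightest probe set, in A/J (grey) and A/J-12SM arrays (blue, x axis). Each digit is the replicate number of 1 array at its value, horizontal marks are means, bars are SDs of 3 arrays, and all panels span the same log2 range. Nqo1, Hmox1, Ugdh and, narrowly, Txnrd1 separate the strains, and replicate 3 of A/J-12SM is far below the others in Gsr.

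Nfe2l2 itself differed little between the strains. Its deposited signals were 1286, 1226 and 1306 in A/J liver and 917, 1065 and 1106 in A/J-12SM liver. The normalized A/J values were 10.19, 10.20 and 10.23, and the A/J-12SM arrays lay at -0.205, -0.10 and 0.01 from their mean. The arrays overlapped only through A/J-12SM replicate 3, while replicates 1 and 2 of that strain lay below every A/J array. The difference was -0.10 (SE 0.09, 95% interval -0.29 to 0.10, adjusted p = 0.889 from limma). Without A/J-12SM replicate 3 it was -0.15 (SE 0.07). The dimmer probe set differed by 0.01 (95% interval -0.66 to 0.68). The mRNA of a factor that is controlled mainly by degradation does not show its protein level, which was not measured.

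Nqo1, the quinone reductase often read as an indicator of NRF2 activity, was among the genes with the largest differences. Its deposited signals were 186, 149 and 129 in A/J liver and 87, 90 and 68 in A/J-12SM liver. After normalization these were 7.36, 7.12 and 6.96 against 6.63, 6.50 and 6.24, so that every A/J array lay above every A/J-12SM array. The means were 7.14 ± 0.20 and 6.46 ± 0.20 (SD, n = 3 arrays each). The difference of -0.68 (SE 0.18, 95% interval -1.10 to -0.27) corresponds to 0.622-fold. It did not pass (limma, adjusted p = 0.547), and the exact two-sided permutation test gave p = 0.1, the smallest that 3 arrays against 3 allow. Without A/J-12SM replicate 3 the difference was -0.58 (SE 0.18). Nqo1 has 1 probe set, so no other one can be set beside it.

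Hmox1, haem oxygenase 1, breaks haem down into biliverdin, iron and carbon monoxide. Its deposited signals were 277, 260 and 245 in A/J liver and 175, 146 and 84 in A/J-12SM liver. The normalized values were 7.93, 7.94 and 7.85 against 7.62, 7.22 and 6.54, with no overlap. The A/J arrays lay close together (SD 0.05), while the A/J-12SM arrays were spread out (SD 0.55), with replicate 3 the lowest. The difference was -0.78 (SE 0.24, 95% interval -1.31 to -0.25, or 0.582-fold, adjusted p = 0.622 from limma). Without replicate 3 it was -0.49 (SE 0.15), moved by over 1.5 times, and the remaining arrays still did not overlap.

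Hmox1 is also a gene of Kupffer cells, the liver macrophages that take up old red cells. All 10 of the Kupffer cell and macrophage markers examined had a lower mean in A/J-12SM liver (median difference -0.27, and -0.19 without replicate 3). A lower mean was found in 50.6% of genes of at least median brightness. None passed an adjusted p under 0.05 in limma, and 2 were lower at an unadjusted p under 0.05, beside 3.40% of all genes. Without overlap between the strains, 1 was lower and 0 higher, beside 7.18% of genes of at least median brightness lower. The summed signal of these markers was 6848 to 8466 on the A/J arrays and 6043 to 7350 on those of A/J-12SM, which overlap. None of the 10 had a signal near 0, with mean log2 signals from 6.40 (Marco) to 11.05 (Csf1r). Adgre1, which encodes a surface receptor used to identify macrophages, differed by -0.05 (SE 0.12), and Clec4f, a Kupffer cell lectin, by -0.25 (SE 0.16) with all arrays and by -0.06 without replicate 3. Cd5l, a protein secreted by macrophages, differed by -0.43 (SE 0.11, no overlap, adjusted p = 0.450 from limma) and by -0.38 without replicate 3. The complement gene C1qa, whose arrays overlapped, differed by -0.35 (SE 0.14) and by -0.25 without replicate 3. All of these but Adgre1 were chosen after their values were seen. Their part in the Hmox1 difference was not tested. In RNA of whole liver, fewer cells of a type and less RNA per cell cannot be told apart.

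The subunits of glutamate-cysteine ligase, which carries out the rate-limiting step of glutathione synthesis, had close signals in both strains. Gclc, the catalytic subunit, read 12.59, 12.67 and 12.58 in A/J liver and 12.62, 12.42 and 12.47 in A/J-12SM liver. The arrays overlapped, with a difference of -0.11 (SE 0.09, 95% interval -0.30 to 0.08). Gclm, the modifier subunit, read 11.32, 11.41 and 11.30 against 11.41, 11.27 and 11.04, a difference of -0.10 (SE 0.10, 95% interval -0.34 to 0.13). Lowerings of up to 0.30 for Gclc and 0.34 for Gclm lie within these log2 intervals. Without replicate 3 the differences were -0.09 (SE 0.08) and -0.00 (SE 0.07). The dimmer probe sets gave -0.00 for Gclc and 0.03 for Gclm. For both genes replicate 3 of A/J-12SM was above its strain's other arrays by the dimmer probe set. In Gclm it was the lowest of all arrays by the brighter one and the highest by the other.

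Of the enzymes that recycle thiols, Gsr rested on 1 array. Gsr, glutathione reductase, read 9.58, 9.53 and 9.49 in A/J liver and 9.46, 9.71 and 8.45 in A/J-12SM liver. Replicates 1 and 2 of A/J-12SM lay within 0.17 of the A/J mean, and replicate 3 lay 1.08 below it. The difference of -0.33 (SE 0.26, 95% interval -0.91 to 0.26) became 0.05 (SE 0.10) without replicate 3. The other Gsr probe set gave -0.14 (SE 0.21) with all arrays and 0.01 without replicate 3.

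Txnrd1, cytosolic thioredoxin reductase, had lower means by all 3 of its probe sets. The brightest read 9.97, 9.82 and 9.78 in A/J liver and 9.72, 9.78 and 9.14 in A/J-12SM liver. The strains did not overlap, but the lowest A/J and the highest A/J-12SM array both round to 9.78. The difference was -0.31 (SE 0.16, 95% interval -0.66 to 0.05). The next probe set read 8.22, 8.07 and 7.90 against 7.80, 7.89 and 7.07, also without overlap, with a difference of -0.48 (SE 0.21, unadjusted p = 0.0479 and adjusted p = 0.800 from limma). The third, the dimmest, gave -0.55 (SE 0.33), and its arrays overlapped. All 3 had their lowest value in replicate 3. Without that array the differences were -0.10, -0.22 and -0.39.

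Srxn1, sulfiredoxin, repairs peroxiredoxins that have been inactivated by peroxide. Its brightest probe set read 7.72, 8.06 and 7.84 in A/J liver and 7.54, 7.94 and 7.38 in A/J-12SM liver. The arrays overlapped, with a difference of -0.25 (SE 0.17, 95% interval -0.63 to 0.13). The other 3 probe sets gave -0.24, -0.29 and -0.29, so all 4 had close point values, though the dimmest had an SE of 0.59. Without replicate 3 the brightest gave -0.13 (SE 0.16).

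Ugdh, UDP-glucose dehydrogenase, makes the UDP-glucuronate that liver cells use to conjugate bilirubin, steroids and drugs. Its deposited signals were 2145, 1892 and 1861 in A/J liver and 1309, 1517 and 1238 in A/J-12SM liver. The normalized values were 10.93, 10.85 and 10.76 against 10.51, 10.62 and 10.36, with no overlap and a small spread within each strain (SD 0.09 and 0.13). The difference of -0.35 (SE 0.09, 95% interval -0.56 to -0.13, or 0.787-fold) had an unadjusted p = 0.00474 and an adjusted p = 0.569 from limma. Without replicate 3 it was -0.28 (SE 0.08). Its promoter window holds 2 matches, that of Srxn1 holds more and that of Nqo1 none. A relation between matches and strain differences was not tested.

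**Figure D2:**
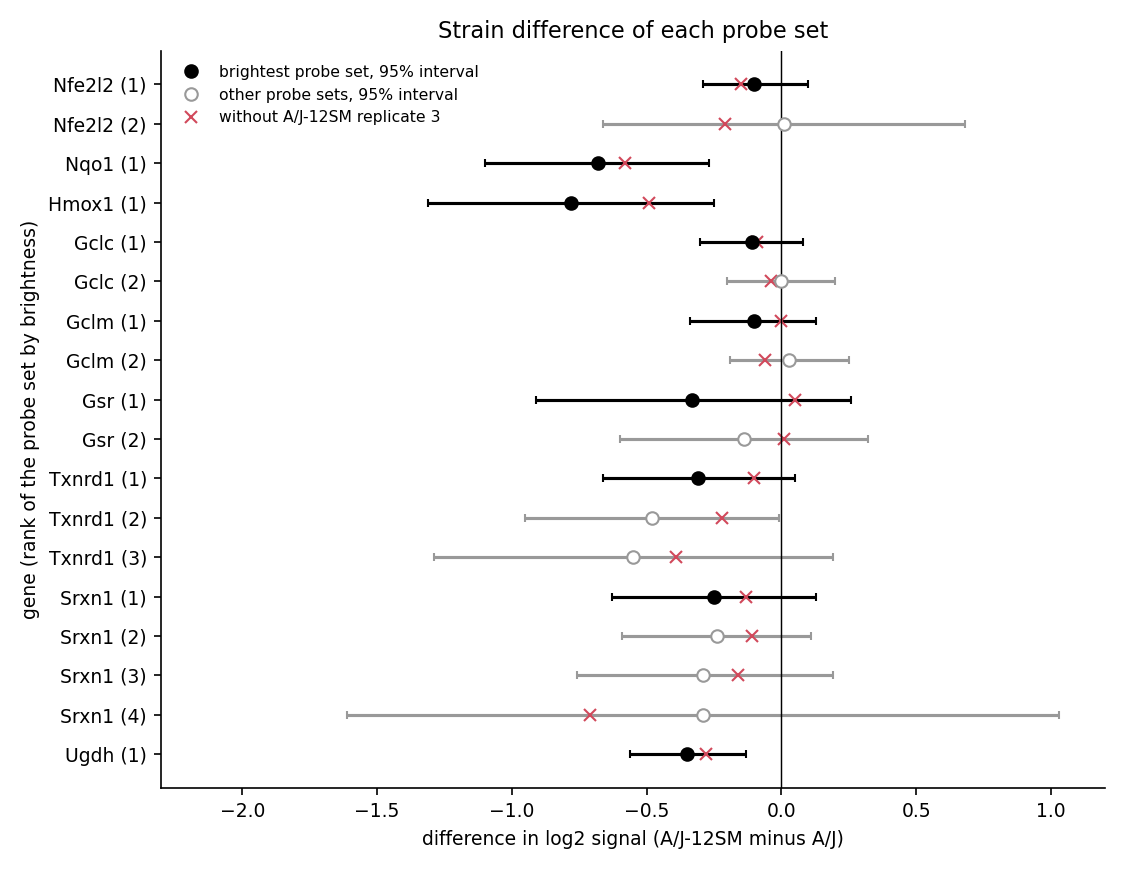
Difference in log2 signal (A/J-12SM minus A/J, x axis) for the 18 probe sets (y axis, gene and rank by brightness). Filled points are the brightest probe set of a gene, open points are the others, bars are 95% intervals from limma, and red crosses are the values without A/J-12SM replicate 3. The intervals of Nqo1, Hmox1, Ugdh and the second Txnrd1 probe set lie below 0, and the crosses of Gsr lie at 0.05 and 0.01.

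The A/J-12SM arrays differed from one another in these genes. Relative to the A/J mean of each gene, the median over the 9 genes was -0.20 in A/J-12SM replicate 1, -0.10 in replicate 2 and -0.49 in replicate 3. In the A/J arrays it was 0.03, 0.00 and -0.05, near 0 because these arrays make up that mean, so the spreads of the strains are not compared here. The median over all genes at or above the median brightness was between 0.000 and 0.009 in each array, as the normalization sets it. Replicate 3 was the lowest of the 6 arrays in 7 of the 9 genes, all but Nfe2l2 and Gclc, against 25.3% of the genes of that brightness. Without this array the median difference was -0.13, 8 of the 9 genes kept a lower mean (49.7% of bright genes had one) and 5 did not overlap (12.4% of bright genes). Nqo1, Hmox1 and Ugdh were below the A/J mean in each A/J-12SM array, with values from -0.22 to -1.37. So was Txnrd1, at -0.13, -0.08 and -0.72 in replicates 1, 2 and 3. The part of RNA quality, on which the actin and GAPDH ratios differ, in the replicate 3 values was not tested.

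**Figure D3:**
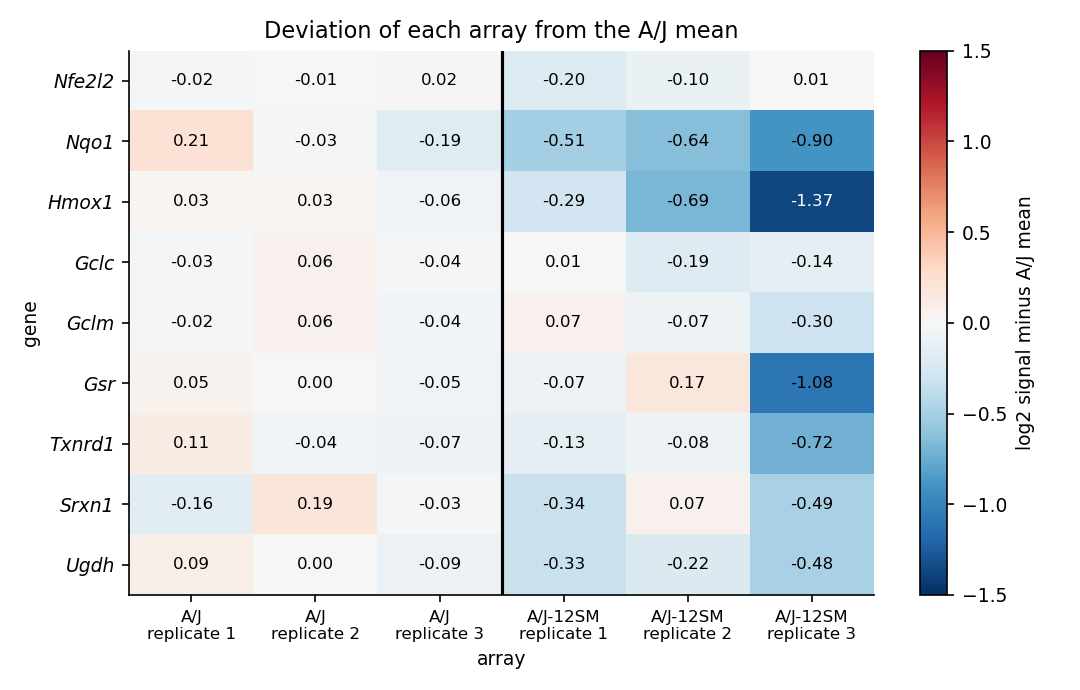
Normalized log2 signal minus the mean of the 3 A/J arrays (colour and printed value) for each of 9 genes (rows, brightest probe set) in each array (columns). Hmox1 and Gsr in A/J-12SM replicate 3 have the lowest values, -1.37 and -1.08, and Nqo1 is low in all 3 A/J-12SM arrays.

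The mRNAs of the proteins that control NRF2 showed no common direction in their means. Without overlap between the strains, 2 of the 11 were lower and 0 higher, beside 6.35% of all genes lower. Of 11 genes, none passed an adjusted p under 0.05 in limma (none at an unadjusted p under 0.05), 6 had a lower and 5 a higher mean, and the median difference was -0.03; as deposited 10 were lower with a median of -0.25, close to the shift of all probe sets. Keap1, the sensor that holds NRF2 in check, was named after its values were seen. It read 8.48, 8.68 and 8.72 in A/J liver and 8.64, 8.76 and 8.84 in A/J-12SM liver, a difference of 0.12 (SE 0.11). The brightest of the list were Sqstm1, the autophagy receptor p62, at -0.21 (SE 0.10), Bach1, a repressor at NRF2 sites, at 0.31 (SE 0.15), Cul3, the ligase scaffold, at 0.01 (SE 0.11), and the small MAF Mafg at -0.03 (SE 0.10). Without A/J-12SM replicate 3 the values were -0.11 for Sqstm1, 0.11 for Bach1, and -0.07 for both Cul3 and Mafg.

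Further targets of NRF2 had mostly lower means. Of 20 genes 19 were measured (Prdx1 has no probe set of its own name alone), 15 had a lower and 4 a higher mean, and the median difference was -0.23, or -0.17 without replicate 3. None passed an adjusted p under 0.05 in limma. At an unadjusted p under 0.05 there were 5 lower and 1 higher, beside 3.40% of all genes lower, and the share higher was not computed. Without overlap between the strains, 8 were lower and 1 higher, beside 7.18% of genes of at least median brightness and 6.35% of all genes lower. Among the 4 brightest, Ephx1, microsomal epoxide hydrolase, read 12.09, 12.10 and 12.19 in A/J liver and 11.65, 11.92 and 11.61 in A/J-12SM liver, a difference of -0.40 (SE 0.10, adjusted p = 0.450 from limma). The iron store Fth1 differed by -0.18 (SE 0.09), thioredoxin (Txn1) by -0.14 (SE 0.08) and transketolase (Tkt) by -0.06 (SE 0.16). Without replicate 3 these were -0.34 for Ephx1, -0.11 for Fth1, -0.18 for Txn1 and -0.10 for Tkt. Osgin1, chosen after its values were seen, ran the other way, with 9.46, 9.53 and 9.15 in A/J liver and 9.61, 9.95 and 9.84 in A/J-12SM liver (difference 0.42, SE 0.13, adjusted p = 0.625 from limma). Gpx2, named as the only gene of this list on chromosome 12, was dim and differed by 0.98 (SE 0.53).

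Glutathione transferases linked to NRF2 were evenly divided, with 4 of 8 lower and 4 higher, a median of 0.00, and none called by limma after adjustment. At an unadjusted p under 0.05, 2 were lower and 0 higher, beside 3.40% of all genes lower. Without overlap between the strains, 2 were lower and 1 higher, beside 7.18% of genes of at least median brightness lower. As deposited 7 were lower, with a median of -0.09. The 4 brightest were Mgst1 at 0.03 (SE 0.09), Gsta3 at -0.21 (SE 0.08), Gstp1 at -0.00 (SE 0.09) and Gstm1 at 0.01 (SE 0.08). Gstm3, chosen after its values were seen, read 10.43, 10.30 and 10.03 in A/J liver and 9.64, 9.83 and 9.75 in A/J-12SM liver. Its difference of -0.51 (SE 0.11) had an adjusted p = 0.392 from limma and was -0.52 without replicate 3. Transferases of the Gstm family are alike in sequence, and probes may be shared between them.

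General antioxidant enzymes had a median difference close to 0. Of 15 genes 12 were measured (not Prdx5, Prdx6 and Ggt1), 8 had a lower and 4 a higher mean, and the median was -0.04, while as deposited all 12 were lower with a median of -0.25. None passed an adjusted p under 0.05 in limma, and 1 was lower at an unadjusted p under 0.05, beside 3.40% of all genes. Without overlap between the strains, 3 were lower and 0 higher, beside 7.18% of genes of at least median brightness lower. Catalase (Cat) differed by -0.04 (SE 0.09), glutathione peroxidase 1 (Gpx1) by 0.04 (SE 0.09), and the superoxide dismutases Sod1 and Sod2 by 0.07 (SE 0.11) and -0.11 (SE 0.09). Without replicate 3 these were -0.04 for Cat, 0.09 for Gpx1, -0.05 for Sod1 and -0.04 for Sod2.

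**Figure D4:**
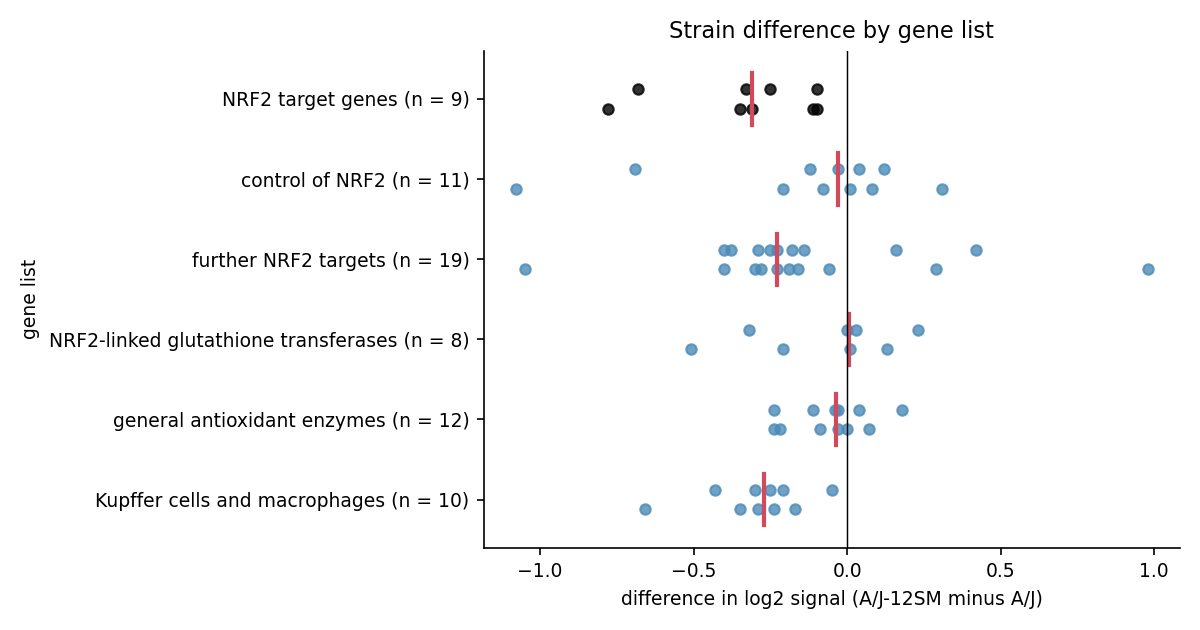
Difference in log2 signal (A/J-12SM minus A/J, x axis) of each measured gene, by its brightest probe set, in 6 gene lists (y axis); red lines are medians. The medians of the NRF2 target genes and of the further targets lie at -0.31 and -0.23. Those of the genes for controlling proteins, transferases and general enzymes lie between -0.04 and 0.00, and that of the Kupffer cell markers at -0.27.

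The other cell type markers gave these values beside the same genes. Hepatocyte markers were lower in 4 and higher in 4 of 8 (median -0.00, Alb 0.11 with SE 0.08). Sinusoidal endothelial markers were lower in 3 of 6 (median 0.01, Stab2 0.15), stellate cell markers higher in 6 of 6 (median 0.03, Lrat 0.02) but lower in 3 of 6 without replicate 3 (median -0.02, Lrat -0.08), and lymphocyte markers higher in 3 of 4 (median 0.09, Ptprc 0.00). Bile duct markers were lower in 3 of 4 measured (median -0.52, 3 of them dimmer than the median probe set, Krt19 0.39). Red blood cell markers were lower in 2 of 2 measured (median -0.51). Hba-a1 was dim, with a difference of -0.58 (SE 0.62). Alas2, the brighter one, chosen after its values were seen, differed by -0.44 (SE 0.12, no overlap, adjusted p = 0.575 from limma), or by -0.32 without replicate 3. The strains also did not overlap in 2 hepatocyte markers, both higher and 1 of them Alb, and in 1 lower and 1 higher endothelial marker. Among all genes, 6.35% were lower without overlap. As deposited, the medians of all these lists but that of bile duct and red blood cells lay between -0.05 and -0.20. None of these markers passed an adjusted p under 0.05 in limma. At an unadjusted p under 0.05, 2 were lower and 3 higher, beside 3.40% of all genes lower, and the share higher was not computed. The part of these markers in the results was not tested.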

How the data were processed

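The authors deposited intensity values, namely MAS5 signals per probe set on a linear scale, for 6 liver arrays; MAS5 is named in the submitters' processing notes, with version and scaling not given in the sources used here. Array levels differed between the strains, so log2 signals were quantile normalized, which removes any true overall shift (the median over all probe sets was -0.22 as deposited). Without the 64 control probe sets, 45037 were fitted with limma 3.58.1 in R 4.3.3 (variance trend on brightness, no covariates, Benjamini-Hochberg adjustment over all probe sets, threshold 0.05), and the fit was tested on simulated data. Genes were named from the platform annotation, updated by gene ID for 34741 of 34945 probe sets with 1 gene. The brightest probe set stood for a gene. Strain and replicate came from the labels. Named genes are the 10 members, the called genes of each other list or, with none called, its 4 brightest, and the first marker of each marker list. Outside this rule, Keap1, Osgin1, Gstm3, Gpx2 and the markers Clec4f, Cd5l, C1qa, Marco, Csf1r and Alas2 were named after their values were seen. The members and lists were chosen with earlier results of these data known. The number of arrays limits the precision, with a typical SD of 0.207 for brighter and 0.863 for dimmer probe sets. Replicate numbers did not pair the arrays. Figures used matplotlib 3.10.9. Alternatives were other normalizations, an offset, a filter on dim probe sets, 1 prior variance, the replicate block, the methods' t-test, the mean over a gene's probe sets, and each array left out.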

Additional observations from a re-analysis of the deposited data

How the results depend on the processing

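No member passed an adjusted p under 0.05 under any alternative run. Of 135 values of single members under the alternatives, 134 kept their direction and 1 did not, namely Gsr at 0.05 without A/J-12SM replicate 3 (from -0.58 to 0.05 with single arrays left out). The median difference over the members, -0.31, was -0.52 with the values as deposited, where the median over all probe sets was -0.22, and ranged from -0.42 to -0.13 with single arrays left out; the lowest came without A/J-12SM replicate 2 and the highest without A/J-12SM replicate 3. Members lower without overlap, 4 of 9, were 7 with the values as deposited (where 29.3% of bright genes were) and 3 with each array centred on its median. They were 4 to 6 with single arrays left out, where fewer arrays make overlap less likely. Without A/J-12SM replicate 3 they were 5, and the share of bright genes rose from 7.18% to 12.4%. This share was not computed for the centred values or without any other array. Members with a lower mean, 9, were 8 to 9 with single arrays left out. These 2 counts were computed under the alternatives only after the data were seen. Over all probe sets 25 were called (11 higher, 14 lower in A/J-12SM), with 47 as deposited (9 higher, 38 lower), 1 with 1 prior variance, 1 by the methods' t-test after adjustment, and 6 to 23 with single arrays left out (6 without replicate 2 of A/J, 11 and 14 without its replicates 3 and 1, and 16 and 14 without replicates 1 and 2 of A/J-12SM). With the replicate number as a block 28 were called and no member; correlations of same-numbered arrays' deviations were -0.0565, 0.0892 and 0.156, so the numbers were not taken as pairs. No call was made in the other NRF2 and antioxidant lists under any alternative. The methods' t-test at an unadjusted p under 0.05 passed 2 members, beside 2630 of 45037 probe sets.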
